A study of Citrullus lanatus with 30 samples.

Results

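The circadian clock genes described here are 10 genes of watermelon (Citrullus lanatus), taken by gene ID from the 22596 genes of the deposited table. Their descriptions place them in the plant clock or its photoperiod output, and they were chosen with earlier results of these data known. Another 16 genes with clock descriptions are treated further below. The 10 genes include LHY (Cla97C06G111640), a gene described only as REVEILLE (Cla97C01G008850), REVEILLE 6 (Cla97C01G000990), LNK2 (Cla97C05G108980) and pseudo-response regulator 7, PRR7 (Cla97C04G075410). The others of the 10 are ELF3 (Cla97C08G160550), an ELF4-like gene (Cla97C07G132630), ELF4-LIKE 4 (Cla97C03G065460), a GIGANTEA-like gene called GIGANTEA here (Cla97C08G150060) and a flavin-binding kelch domain F box gene called FKF1-like here (Cla97C07G133850). All 10 passed the filter on low values, which 16503 genes of the table passed.

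As worked out in Arabidopsis, the plant clock is a set of transcription factors that repress or activate each other in turn through the day. Morning MYB-like factors such as LHY repress genes of the evening, pseudo-response regulators repress the morning factors in daytime, and an evening complex built on ELF3 and ELF4 represses the regulators at night. GIGANTEA and FKF1 respond to light and carry day length to flowering and to protein turnover. Transcripts of most of these genes rise and fall within each day, so a level from a single harvest depends on its hour as well as on the age and genotype of the fruit.

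RNA of fruit flesh was sequenced from wild type (WT) watermelon and from a mutant line named clnor, each at 10, 18, 26, 34 and 42 days after pollination (DAP). There were 3 libraries in each of the 10 groups, 30 in all, and no treatment is named in any group. The labels give no cultivar, no allele or way of making for clnor, no hour of harvest and no statement that replicates were separate fruits or plants. Differences of age or genotype and differences of harvest hour therefore cannot be told apart, and p-values cover only how far these samples spread, which may be technical. Libraries are numbered below by the replicate number in their label.

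Values are TPM, a level per gene length and per library total that keeps no sequencing depth, so the depth behind each value is unknown. Differences are on the scale of log2(TPM + 1), which understates changes of genes at low level, with the standard error (SE) of the fit. A gene was called where limma's p-value, adjusted by Benjamini and Hochberg over all 16503 genes tested, was below 0.05. In flesh as a whole, fewer cells of a type and less RNA per cell cannot be told apart.

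Before the results, 5 of the 30 libraries correlated best with the mean of another group than their own, over all genes tested. They were WT 18 DAP library 3 and clnor 18 DAP library 3, each nearest to the other genotype at that age, clnor 10 DAP library 1, nearest to WT 10 DAP, clnor 10 DAP library 3, nearest to clnor 18 DAP, and clnor 34 DAP library 2, nearest to clnor 42 DAP. Calls of single clock genes that change without all 5 of them are given with the results, with 2 exceptions. For steps between ages in WT, calls that changed in that fit are not listed. Where clnor 10 DAP enters, only 1 clnor library is left at that age, so the difference alone is given. The 5 were picked for lying nearer to another group, so leaving them out tends to narrow the spread within groups. Calls gained in that fit are therefore no added support. No description in the table names the mutated gene, so the labels could not be checked on it. The flesh markers (13 genes of lycopene and sugar metabolism, 0 of them at 0 in all libraries) summed to 983 to 1190 TPM in WT at 10 DAP and 4570 to 5600 TPM at 42 DAP, against 918 to 1810 TPM over all clnor libraries. Sums over the libraries were 3010 to 8220 TPM for 116 seed genes (22 at 0 throughout), 280 to 1480 TPM for 39 phloem genes (2 at 0), 145 to 783 TPM for 27 epidermis and cuticle genes (2 at 0) and 1570 to 7390 TPM for 68 photosynthesis genes (4 at 0).

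Across the 30 libraries the median level was highest for ELF3 at 112 TPM, followed by PRR7 at 99.9 TPM and LNK2 at 99.4 TPM. FKF1-like, LHY, GIGANTEA and REVEILLE 6 had medians of 62.4, 60.8, 59.9 and 55.3 TPM, and REVEILLE one of 26.5 TPM. ELF4-LIKE 4 and the ELF4-like gene were lowest, at 15.6 and 14.2 TPM. The spread over libraries was widest for the ELF4-like gene, whose highest library was 219-fold its lowest, then for FKF1-like at 85.8-fold and LHY at 41.8-fold. It was narrowest for REVEILLE 6, at 3.1-fold.

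**Figure D1:**
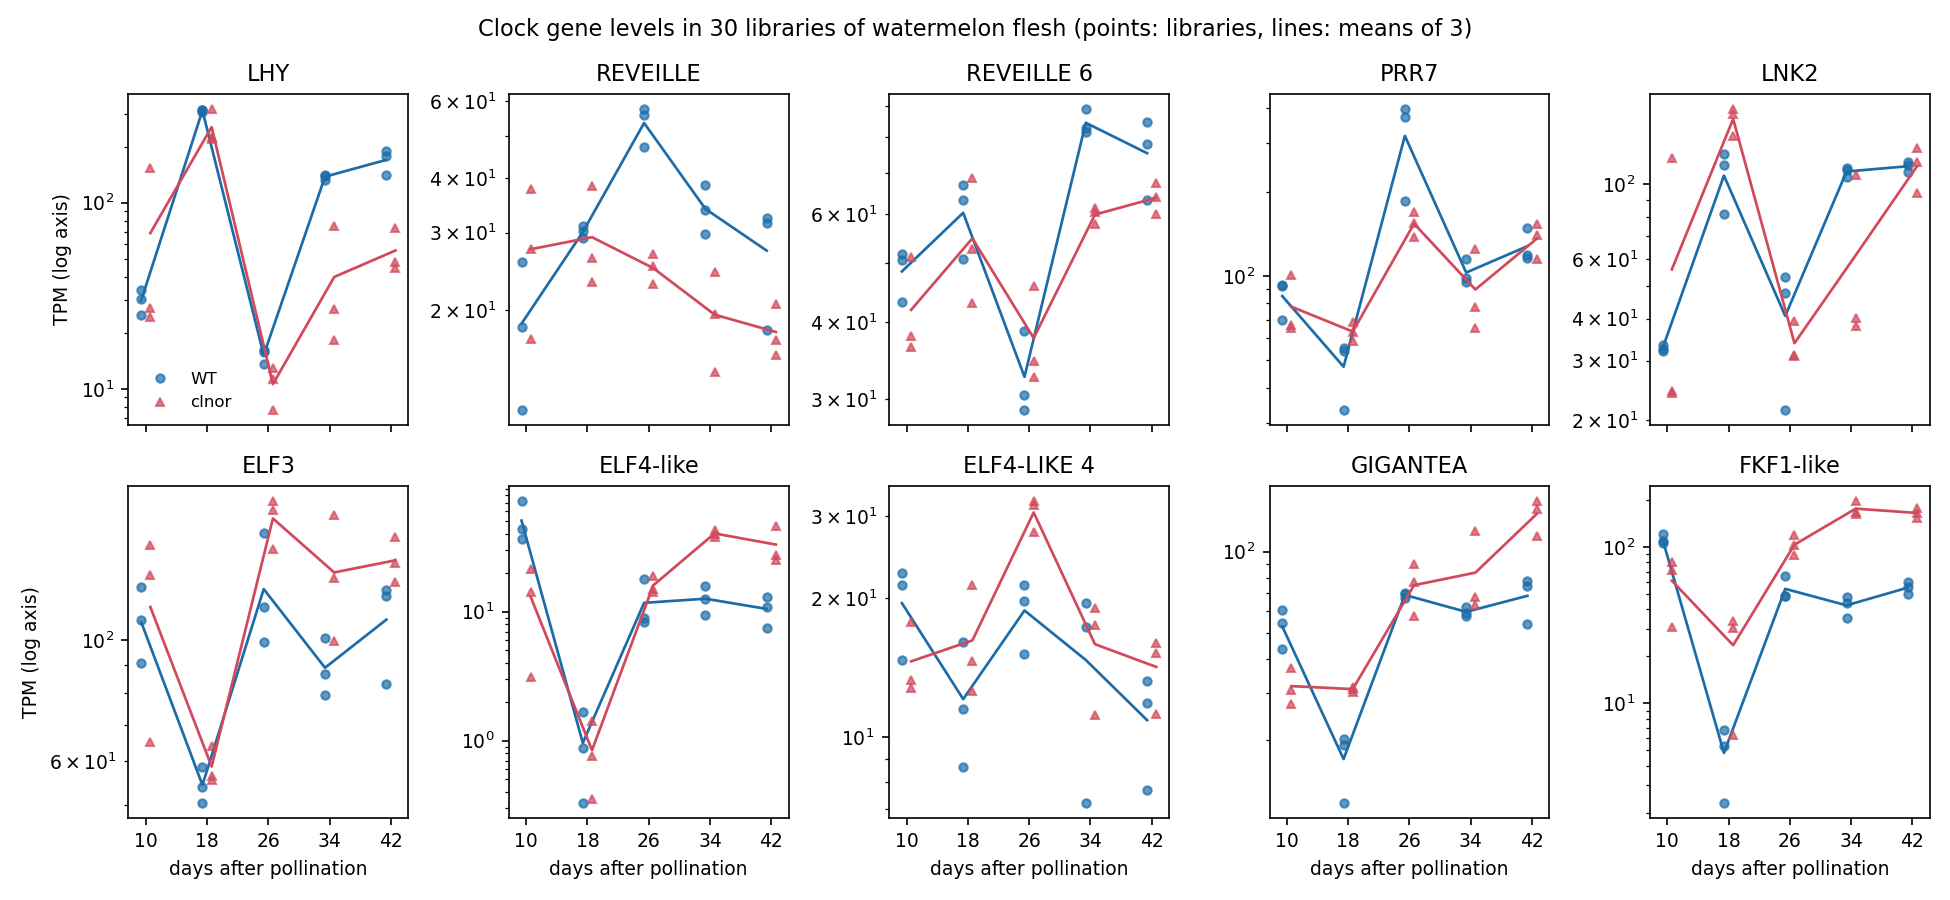
Levels of the 10 clock genes in TPM (log axis, a scale of its own in each panel) against age in days after pollination, with a point for each of the 30 libraries and lines through the means of 3 libraries. At 18 DAP LHY stood at its highest (mean 313 TPM in WT), and the ELF4-like, FKF1-like and GIGANTEA genes stood at their lowest in WT.

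LHY, a morning MYB-like repressor in Arabidopsis, moved up, down and up again with age in both genotypes, and was lower in clnor than in WT at 34 and 42 DAP. The WT libraries held 30.3, 24.9 and 34.2 TPM at 10 DAP, 316, 315 and 309 TPM at 18 DAP, and 15.8, 16.1 and 13.6 TPM at 26 DAP. They held 133, 139.9 and 141 TPM at 34 DAP, and 141, 179 and 190.3 TPM at 42 DAP. In WT the ages thus ranked 26, 10, 34, 42 and 18 DAP from low to high, and of the steps between successive ages only that from 34 to 42 DAP was not called (limma adjusted p = 0.803). The clnor libraries held 27.2, 24.4 and 155 TPM at 10 DAP, 219.6, 226 and 321 TPM at 18 DAP, and 12.99, 7.66 and 11.2 TPM at 26 DAP. They held 18.2, 74.5 and 27.0 TPM at 34 DAP, and 44.5, 48.3 and 73.3 TPM at 42 DAP. The 10 DAP library at 155 TPM was library 3, and the 34 DAP library at 74.5 TPM was library 2, both far above their group mates and both among the 5 libraries named above. Every clnor library lay below every WT library at 26, 34 and 42 DAP, while the genotypes overlapped at 10 and 18 DAP.

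In WT, LHY rose by 3.36 (SE 0.47, log2) from 10 to 18 DAP, fell by 4.28 to 26 DAP and rose by 3.10 to 34 DAP, with limma adjusted p of 3.93e-05, 9.11e-07 and 3.51e-05. The same steps in clnor were a rise of 2.39, a fall of 4.47 and a rise of 1.59 (adjusted p = 0.00591, 1.23e-06 and 0.0232). The clnor rise to 18 DAP was not called without clnor 10 DAP library 1 or 2 (adjusted p = 0.0507 to 0.07), and was 3.24 without library 3. The clnor rise to 34 DAP was not called without clnor 26 DAP library 2 or clnor 34 DAP library 2 (adjusted p = 0.0872 to 0.154). Against WT, LHY in clnor was lower by 2.01 at 34 DAP, a 4.04-fold difference (SE 0.47, adjusted p = 0.00156), and lower by 1.63 at 42 DAP, a 3.09-fold difference (adjusted p = 0.0098). Leaving out any 1 library kept both calls, with differences at 34 DAP from -2.58, without clnor 34 DAP library 2, to -1.59. At 10, 18 and 26 DAP the differences were 0.66, -0.31 and -0.50, none of them called. The 10 DAP value changed sign, to -0.19, without clnor 10 DAP library 3.

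REVEILLE, of the same MYB-like family as LHY, rose in WT up to 26 DAP and was lower in clnor at 26 and 34 DAP. The WT libraries held 18.3, 11.8 and 25.7 TPM at 10 DAP, 29.1, 30.2 and 31.1 TPM at 18 DAP, and 57.6, 47.1 and 55.7 TPM at 26 DAP. They held 29.8, 38.5 and 33.8 TPM at 34 DAP, and 18.0, 31.6 and 32.4 TPM at 42 DAP. WT was therefore highest at 26 DAP in all 3 libraries. The clnor libraries held 17.1, 37.8 and 27.5 TPM at 10 DAP, 23.2, 26.3 and 38.4 TPM at 18 DAP, 22.9, 25.1 and 26.8 TPM at 26 DAP, 24.4, 14.4 and 19.6 TPM at 34 DAP, and 17.0, 15.8 and 20.7 TPM at 42 DAP. The 3 clnor libraries lay below the 3 WT libraries at 26 and 34 DAP and overlapped them at the other ages. The difference was -1.07 at 26 DAP (SE 0.27, limma adjusted p = 0.00863), -0.80 at 34 DAP (adjusted p = 0.0217), and -0.55 and not called at 42 DAP (adjusted p = 0.123). The call at 34 DAP was lost without WT 34 DAP library 2 or 3 or clnor 34 DAP library 2 (adjusted p = 0.0504 to 0.12) and without the 5 libraries (-0.61, adjusted p = 0.0651), and the difference at 42 DAP was called without WT 42 DAP library 1 (adjusted p = 0.032). REVEILLE rose in WT by 0.73 from 10 to 18 DAP and by 0.80 to 26 DAP (adjusted p = 0.0406 and 0.0223). The first rise was lost without WT 10 DAP library 1 or 2 or any of the WT 18 DAP libraries (adjusted p = 0.0722 to 0.226), and the other without WT 18 DAP library 1 or WT 26 DAP library 1 or 3 (adjusted p = 0.0543 to 0.0712). With upper-quartile scaling the first rise was 0.65 (adjusted p = 0.0534). The later WT step from 26 to 34 DAP was -0.64 and not called (adjusted p = 0.0721), except without clnor 10 DAP library 1 (adjusted p = 0.048). In clnor the F test over ages was not called (adjusted p = 0.13), except without clnor 10 DAP library 1 (adjusted p = 0.0378).

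REVEILLE 6, which belongs in Arabidopsis to a group of REVEILLE factors that activate evening genes, changed less. WT libraries held 30.5, 28.8 and 38.7 TPM at 26 DAP and 81.6, 82.8 and 89.1 TPM at 34 DAP, the lowest and highest WT ages, and clnor libraries held 34.6, 45.9 and 32.6 TPM and 60.5, 57.9 and 61.4 TPM. At 34 DAP each clnor library was below each WT library. At the other ages the genotypes overlapped, with 36.5 to 51.6 TPM at 10 DAP, 43.0 to 68.7 TPM at 18 DAP and 60.1 to 84.7 TPM at 42 DAP. REVEILLE 6 fell from 18 to 26 DAP by 0.87 in WT and by 0.52 in clnor, and rose from 26 to 34 DAP by 1.36 in WT and by 0.67 in clnor (limma adjusted p = 0.000349, 0.0212, 3.62e-06 and 0.00826). The clnor fall was lost without clnor 18 DAP library 3 or clnor 26 DAP library 1 or 3 (adjusted p = 0.0785 to 0.14) and without the 5 libraries (-0.35, adjusted p = 0.0946). The genotype difference at 34 DAP was -0.49 (SE 0.17, adjusted p = 0.0234), lost without WT 34 DAP library 3 or clnor 34 DAP library 2 (adjusted p = 0.0659 to 0.0748). Averaged over ages it was -0.18 and not called (adjusted p = 0.0533), but was called with upper-quartile scaling (-0.21, 0.0146) and quantile normalization (-0.2, 0.0252). It was -0.26 without the 5 libraries. It was also called without any 1 of WT 10 DAP library 1, WT 18 DAP library 3, WT 26 DAP library 2, WT 42 DAP library 1, clnor 10 or 18 DAP library 3, or clnor 26 DAP library 2 (0.0154 to 0.0426).

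LNK2, a coactivator that works with REVEILLE factors in Arabidopsis, rose and fell at the same steps as LHY up to 26 DAP. WT libraries held 32.1, 32.6 and 33.3 TPM at 10 DAP, 123.03, 81.8 and 114 TPM at 18 DAP, and 47.7, 53.0 and 21.4 TPM at 26 DAP. All 6 WT libraries at 34 and 42 DAP lay between 104.7 and 116 TPM. The clnor libraries held 24.4, 24.0 and 119 TPM at 10 DAP, 161, 167 and 139 TPM at 18 DAP, 39.4, 31.0 and 31.1 TPM at 26 DAP, 40.2, 107 and 38.0 TPM at 34 DAP, and 117, 94.1 and 128 TPM at 42 DAP. The libraries that stood far above their group mates were again clnor 10 DAP library 3 and clnor 34 DAP library 2. At 18 DAP the clnor libraries lay above the WT libraries, with a difference of 0.56 that was not called (SE 0.43, limma adjusted p = 0.506), and at the other ages the genotypes overlapped. LNK2 rose from 10 to 18 DAP by 1.65 in WT and by 1.88 in clnor, and fell to 26 DAP with steps of -1.44 and -2.17 (adjusted p = 0.00583, 0.0143, 0.0108 and 0.000633). The rise from 26 to 34 DAP was called in WT (1.5, adjusted p = 0.00949) and was 0.69 and not called in clnor (adjusted p = 0.304). In WT the fall to 26 DAP and the rise from it were lost without WT 26 DAP library 3 (adjusted p = 0.0746 and 0.0654), and the clnor rise to 18 DAP without clnor 10 DAP library 1 or 2 (adjusted p = 0.0995 to 0.12). The genotype difference at 34 DAP was -0.98 (adjusted p = 0.0727), and it was called without clnor 34 DAP library 2 (-1.45, adjusted p = 0.0127) and without clnor 10 DAP library 3 (adjusted p = 0.0109), as well as with upper-quartile scaling (-1.07, adjusted p = 0.0423) and without the 5 libraries (adjusted p = 0.000224).

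PRR7, which represses LHY and its relatives in Arabidopsis, was highest at 26 DAP, where LHY was lowest. At 26 DAP the WT libraries held 370, 397 and 185 TPM and the clnor libraries 169, 138 and 155 TPM, without overlap. At 18 DAP WT held 55.3, 33.2 and 53.9 TPM and clnor 58.6, 63.1 and 68.4 TPM, also without overlap, with clnor above. Over the other ages levels ran from 65.3 to 154 TPM with the genotypes overlapping at each. The clnor level was lower at 26 DAP by 0.96 (SE 0.26, limma adjusted p = 0.0128), while the 18 DAP difference of 0.44 was not called (adjusted p = 0.361). The 26 DAP call was lost without WT 26 DAP library 1 or 2 or clnor 26 DAP library 2 (adjusted p = 0.0503 to 0.0927), and in a fit of these groups alone (adjusted p = 0.0877). In WT, PRR7 fell by 0.85 from 10 to 18 DAP, rose by 2.67 to 26 DAP and fell by 1.54 to 34 DAP (adjusted p = 0.0153, 2.48e-07 and 0.000103). In clnor it rose by 1.27 from 18 to 26 DAP and fell by 0.82 to 34 DAP (adjusted p = 0.000826 and 0.032). The first WT fall was lost without WT 10 DAP library 1 or 3 or WT 18 DAP library 2 (adjusted p = 0.0519 to 0.12), and the clnor fall without clnor 26 or 34 DAP libraries 1 or 3 (adjusted p = 0.0753 to 0.141).

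ELF3, the scaffold of the evening complex, was lowest at 18 DAP in both genotypes. The 18 DAP libraries held 50.4, 53.9 and 58.6 TPM in WT and 56.5, 64.1 and 55.6 TPM in clnor, and the 26 DAP libraries 115, 99.2 and 157 TPM in WT and 173, 147 and 179.8 TPM in clnor. At 42 DAP the clnor libraries, at 138, 128 and 154 TPM, lay above the WT libraries, at 83.1, 124 and 120.4 TPM. Levels overlapped at 10, 18, 26 and 34 DAP. ELF3 fell from 10 to 18 DAP by 0.97 in WT and by 0.88 in clnor and rose to 26 DAP by 1.15 and by 1.49 (limma adjusted p = 0.0042, 0.0301, 0.000708 and 9.68e-05). The clnor fall was lost without clnor 10 DAP library 1 or 2 or clnor 18 DAP library 1 or 3 (adjusted p = 0.0669 to 0.206). Averaged over ages ELF3 was higher in clnor by 0.30 (SE 0.11, adjusted p = 0.0243), which upper-quartile scaling moved to 0.26 (adjusted p = 0.0506). No single age was called, although that at 34 DAP, 0.55, was called without clnor 10 DAP library 3 or clnor 34 DAP library 1 (adjusted p = 0.0238 to 0.0288).

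The ELF4-like gene, of the family whose Arabidopsis founder binds ELF3, nearly vanished at 18 DAP and had opposite genotype differences early and late. At 10 DAP the WT libraries held 36.5, 72.1 and 43.7 TPM and the clnor libraries 14.3, 21.6 and 3.14 TPM. At 18 DAP WT held 1.67, 0.33 and 0.88 TPM and clnor 0.76, 1.42 and 0.35 TPM. At 26 DAP WT held 17.8, 8.27 and 8.96 TPM and clnor 18.9, 15.0 and 14.2 TPM. The genotypes overlapped at 18 and 26 DAP, and clnor lay below WT at 10 DAP. At 34 DAP WT held 9.43, 15.7 and 12.6 TPM and clnor 43.1, 37.8 and 40.2 TPM, and at 42 DAP WT held 7.52, 10.9 and 12.9 TPM and clnor 46.5, 27.5 and 25.3 TPM. At both of these ages every clnor library was above every WT library.

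For the ELF4-like gene the clnor level was lower by 2.14 at 10 DAP, a 4.41-fold difference (SE 0.44, limma adjusted p = 0.0245), higher by 1.63 at 34 DAP, a 3.1-fold difference (adjusted p = 0.00479), and higher by 1.55 at 42 DAP (adjusted p = 0.00848). The 10 DAP call was lost without WT 10 DAP library 2 or 3 or clnor 10 DAP library 3 (adjusted p = 0.0614 to 0.169), where the difference reached -1.42 without the last of them. It was also lost with a pseudocount of 0.1 (adjusted p = 0.098) and in a fit of these groups alone (0.468). Without the 5 libraries, which leaves 1 clnor library at 10 DAP, the difference was -1.14. Averaged over ages the difference was 0.29 and not called (adjusted p = 0.227), except without clnor 10 DAP library 3 (0.0178). Without the 5 libraries that average was 0.54. The 42 DAP call was lost without clnor 42 DAP library 1 (adjusted p = 0.0537), and the 34 DAP call was kept whichever library was left out. From 10 to 18 DAP the gene fell, with steps of -4.72 in WT and -2.65 in clnor (adjusted p = 3.16e-07 and 0.00188), and it rose to 26 DAP by 2.68 and by 3.24 (adjusted p = 7.03e-05 and 1.74e-05). From 26 to 34 DAP it rose by 1.29 in clnor (adjusted p = 0.0466), a call that was lost in 16 of the 30 fits that left out 1 library (adjusted p = 0.0501 to 0.122), with pseudocounts of 0.1 and 0.5 (0.109 and 0.067) and with no filter (0.0559). The 16 were the fits without any library of clnor 26 or 34 DAP or of WT 34 DAP, WT 10 DAP library 3, WT 18 DAP library 3, clnor 18 DAP library 1, or library 2 or 3 of either genotype at 42 DAP. The same step in WT was 0.15 and not called.

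ELF4-LIKE 4, a relative of the same small family, varied least with age among the evening genes. Its WT levels ran from 7.23 TPM at 34 DAP to 22.6 TPM at 10 DAP, and its clnor levels from 11.2 TPM at 34 and 42 DAP to 32.4 TPM at 26 DAP. At 26 DAP clnor held 31.8, 32.4 and 27.8 TPM and WT 19.7, 21.4 and 15.2 TPM, without overlap, and the difference of 0.69 was not called (SE 0.30, limma adjusted p = 0.122), except in a fit of these groups alone (adjusted p = 0.0336). In clnor it rose by 0.91 from 18 to 26 DAP and fell by 0.93 to 34 DAP (adjusted p = 0.022 and 0.034). The rise was lost without clnor 18 DAP library 2 or 3 or clnor 26 DAP library 1 or 2 (adjusted p = 0.0606 to 0.0976), and the fall without clnor 34 DAP library 1 or any clnor 26 DAP library (adjusted p = 0.0567 to 0.147). Without the 5 libraries neither was called (adjusted p = 0.0748 and 0.0585). The F test over ages was called in clnor (adjusted p = 0.0168), though not without clnor 26 DAP library 1 or 2 (adjusted p = 0.0736 and 0.0759). It was not called in WT (adjusted p = 0.0539), but was with upper-quartile scaling (0.0385) and in 9 fits that left out 1 library, down to 0.0116 without WT 34 DAP library 1. The other 8 were without WT 10 DAP library 3, WT 18 DAP library 2, WT 26 DAP library 3, WT 34 DAP library 2 or 3, WT 42 DAP library 1, or library 1 of clnor 18 or 34 DAP (0.03 to 0.0488).

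GIGANTEA, which in Arabidopsis binds FKF1 in blue light and sets flowering by day length, was lowest at 18 DAP in WT and climbed to its highest levels in clnor at 42 DAP. At 10 DAP the WT libraries held 54.2, 43.5 and 60.7 TPM and the clnor libraries 30.7, 37.0 and 27.3 TPM, so that clnor lay below WT. At 18 DAP WT held 20.2, 11.7 and 19.2 TPM and clnor 31.5, 30.2 and 30.8 TPM, so that clnor lay above. At 26 DAP WT held 67.6, 69.4 and 70.3 TPM and clnor 77.4, 89.9 and 57.9 TPM, with overlap. At 34 DAP WT held 57.7, 62.6 and 59.1 TPM and clnor 67.6, 119.8 and 63.3 TPM, and at 42 DAP WT held 77.6, 74.3 and 53.9 TPM and clnor 154, 114 and 145 TPM. At both of the last ages clnor lay above WT, by little at 34 DAP and by more at 42 DAP. The difference was 0.86 at 18 DAP (SE 0.22, limma adjusted p = 0.0416) and 1.0 at 42 DAP, a 2-fold difference (adjusted p = 0.00114). It was 0.42 at 34 DAP and -0.72 at 10 DAP, neither called (adjusted p = 0.137 and 0.161). Averaged over ages it was 0.33 (SE 0.10, adjusted p = 0.00775).

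The GIGANTEA call at 18 DAP was lost in 10 of the 30 fits that left out 1 library (adjusted p = 0.0506 to 0.355), those without WT 18 DAP library 2, WT 26 DAP library 1 or 2, any WT 34 DAP library, clnor 18 DAP library 1 or 2, clnor 26 DAP library 1, or clnor 42 DAP library 3. With quantile normalization it was 0.77 and not called (adjusted p = 0.0571), and in a fit of these groups alone the adjusted p was 0.57. GIGANTEA fell in WT by 1.60 from 10 to 18 DAP and rose by 1.99 to 26 DAP (adjusted p = 3.21e-05 and 9.11e-07). In clnor the first step was -0.03 and not called (adjusted p = 0.965), and the rise to 26 DAP was 1.23 (adjusted p = 0.000241). From 34 to 42 DAP the clnor step of 0.76 was not called (adjusted p = 0.0679), but was without WT 18 DAP library 2, clnor 34 DAP library 2 or clnor 42 DAP library 2 (adjusted p = 0.00885 to 0.0474) and without the 5 libraries (1.05, adjusted p = 0.0056).

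FKF1-like carries the description of a blue light receptor F-box protein that in Arabidopsis removes repressors of flowering, and it was higher in clnor at 18, 34 and 42 DAP. Its difference averaged over ages, 1.09, was the largest in size of the 10 genes. At 10 DAP WT held 106, 121 and 109.9 TPM and clnor 80.5, 72.1 and 30.8 TPM. At 18 DAP WT held 5.37, 2.31 and 6.77 TPM and clnor 30.6, 33.8 and 6.30 TPM. At 10 DAP all clnor libraries were below WT, and at 18 DAP library 3 of clnor lay among the WT libraries while the others were above them. At 26 DAP WT held 65.2, 49.0 and 48.4 TPM and clnor 119.96, 88.8 and 103 TPM, and at 34 DAP WT held 35.4, 48.3 and 43.8 TPM and clnor 169, 198 and 164 TPM. At 42 DAP WT held 59.6, 56.0 and 50 TPM and clnor 165, 179 and 153 TPM. From 26 DAP on every clnor library was above every WT library.

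The FKF1-like difference between clnor and WT was 2.04 at 34 DAP, a 4.11-fold higher level (SE 0.41, limma adjusted p = 0.000397), and 1.57 at 42 DAP, 2.97-fold (adjusted p = 0.00473). Both calls were kept whichever library was left out. At 18 DAP it was 1.87 (adjusted p = 0.0217), lost without WT 18 DAP library 2 or clnor 18 DAP library 1 or 2 (adjusted p = 0.159 to 0.225) and in a fit of these groups alone (0.57). The values at 26 and 10 DAP, 0.93 and -0.98, were not called (adjusted p = 0.131 and 0.366), and the first was called without clnor 18 DAP library 3 (adjusted p = 0.0223), in a fit of these groups alone (0.0196) and without the 5 libraries (0.00153). The 10 DAP value was -0.55 without clnor 10 DAP library 3. Averaged over ages FKF1-like was higher in clnor by 1.09 (SE 0.18, adjusted p = 3.74e-05). It fell from 10 to 18 DAP, with steps of -4.37 in WT and -1.52 in clnor (adjusted p = 3.41e-07 and 0.0281) and rose to 26 DAP by 3.32 and by 2.38 (adjusted p = 3.09e-06 and 0.000172). The clnor fall was lost without clnor 10 DAP library 1 or 2 or clnor 18 DAP library 3 (adjusted p = 0.153 to 0.181). The clnor step from 26 to 34 DAP, 0.77, was not called (adjusted p = 0.22), except without the 5 libraries (0.68, 0.0298).

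**Figure D2:**
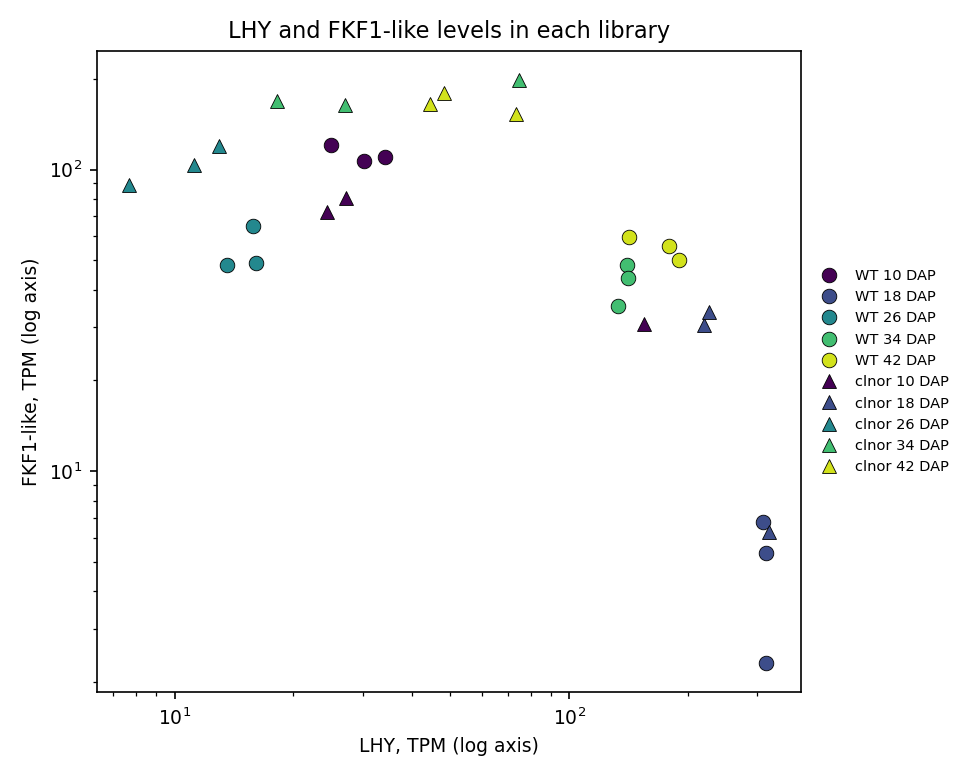
FKF1-like against LHY in each of the 30 libraries, both in TPM on log axes, with circles for WT, triangles for clnor and colours for ages. The 3 WT libraries of 18 DAP and clnor 18 DAP library 3 combine 309 to 321 TPM of LHY with 2.31 to 6.77 TPM of FKF1-like, and the clnor libraries of 34 and 42 DAP lie at the top with 153 to 198 TPM of FKF1-like.

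Counted over the 10 genes, calls between the genotypes were most frequent at 34 and 42 DAP, in both directions, as they were over all genes tested. At 10 DAP 0 clock genes were higher in clnor and 1 was lower, where 0.248% and 0.224% of all genes tested were higher and lower. At 18 DAP 2 were higher and 0 lower (background 1.38% and 0.97%), and at 26 DAP 0 were higher and 2 lower (9.66% and 5.8%). The calls at 34 DAP were 2 higher, ELF4-like and FKF1-like, and 3 lower, LHY, REVEILLE and REVEILLE 6 (27.4% and 12.1%). Those at 42 DAP were 3 higher, ELF4-like, GIGANTEA and FKF1-like, and 1 lower, LHY (18.8% and 13.8%). Averaged over ages 3 were higher, ELF3, GIGANTEA and FKF1-like, and 2 lower, LHY and REVEILLE (31.8% and 16.4%). The shares of calls at 34 and 42 DAP and averaged over ages, 5, 4 and 5 of 10, are thus near the backgrounds of both directions together. The median difference of the 10 genes was -0.04 at 34 DAP and 0.23 at 42 DAP, where the medians of all genes were 0.199 and 0.056. Without the 5 libraries nearest to another group the calls were 2, 3, 5 and 4 at 18, 26, 34 and 42 DAP. At 10 DAP that fit has 1 clnor library, so no count is given for it or for the average over ages. Leaving out 1 library took the count to 0 at 10 DAP (without WT 10 DAP library 2 or 3 or clnor 10 DAP library 3) and to 0 at 18 DAP (without WT 18 DAP library 2 or clnor 18 DAP library 1 or 2). It took the count to 1 at 26 DAP (without WT 26 DAP library 1 or 2 or clnor 26 DAP library 2) and to 3 at 34 DAP (without WT 34 DAP library 3).

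**Figure D3:**
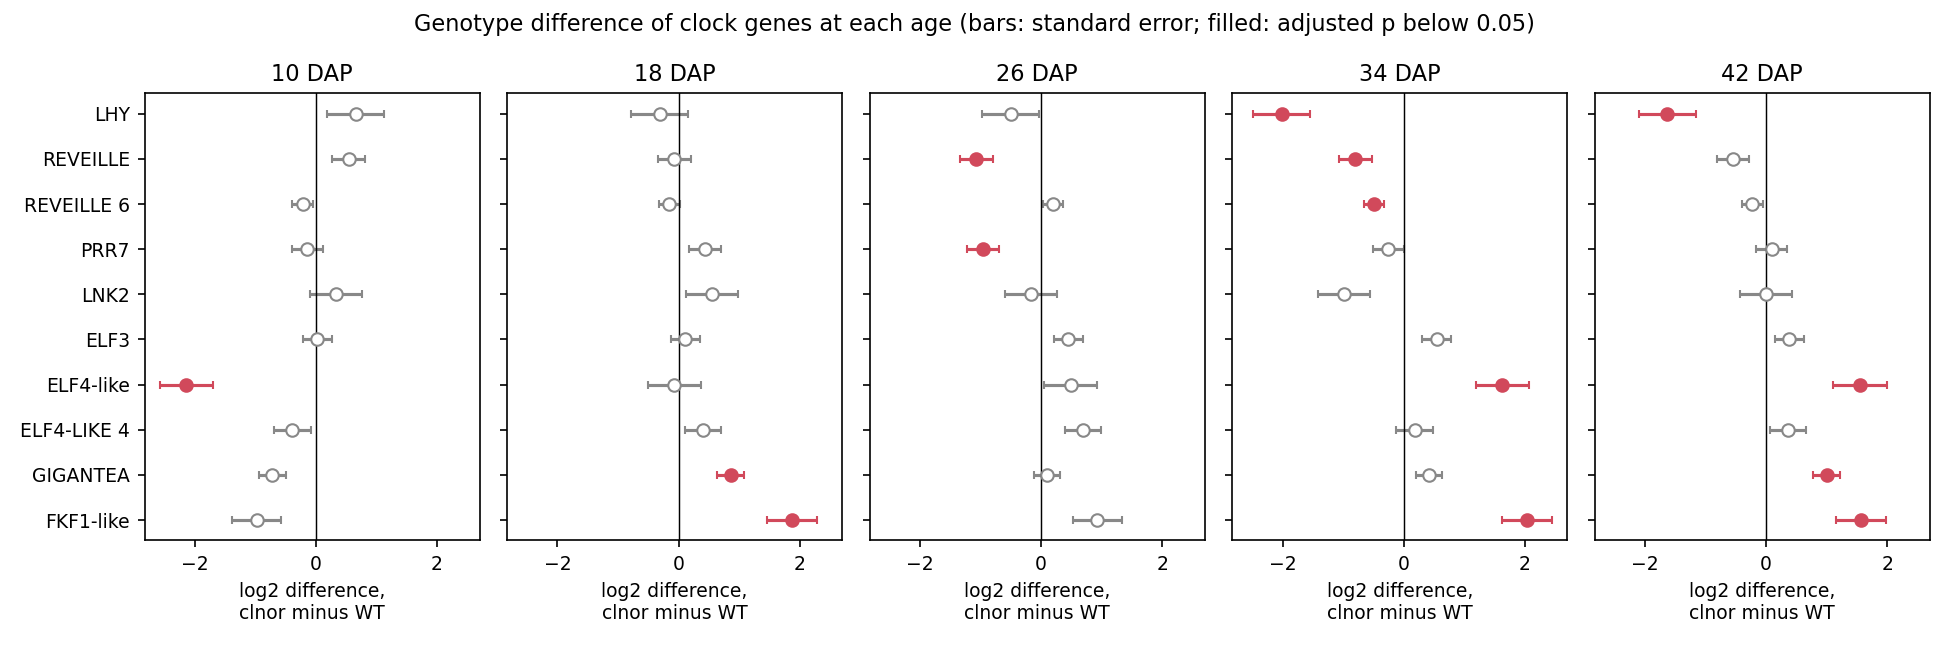
Difference between clnor and WT (log2 of TPM + 1) of each clock gene at each age, with bars for the standard error and filled points where the adjusted p was below 0.05. The late panels show LHY to the left (-2.01 at 34 DAP and -1.63 at 42 DAP) and ELF4-like and FKF1-like to the right (1.55 to 2.04).

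Of 29 tested phloem markers 10 were called higher in clnor and 0 lower at 34 DAP, where 27.4% and 12.1% of all genes were, and again 10 and 0 at 42 DAP, where 18.8% and 13.8% were. Their sum was 280 to 393 TPM in WT and 435 to 1400 TPM in clnor at 34 DAP, and 448 to 699 TPM in WT and 450 to 1100 TPM in clnor at 42 DAP, where the genotypes overlapped. Epidermis and cuticle markers summed to 176 to 297 TPM in WT and 188 to 307 TPM in clnor at 34 DAP, and to 155 to 196 and 344 to 482 TPM at 42 DAP. Seed markers summed to 6110 to 7480 TPM in WT and 3560 to 4120 TPM in clnor at 34 DAP, and to 3580 to 3880 and 3050 to 3690 TPM, with overlap, at 42 DAP. By count 10 of 68 tested seed markers were higher and 10 lower at 34 DAP, with a median difference of 0.13 where that of all genes was 0.199. Flesh markers summed to 3160 to 3990 TPM in WT and 1050 to 1380 TPM in clnor at 34 DAP, with 3 of 13 higher, 3 lower and a median of 0.29, and to 4570 to 5600 and 1390 to 1810 TPM at 42 DAP. Of 51 tested photosynthesis markers 12 were higher and 9 lower in clnor at 34 DAP, with a median of -0.27. At 42 DAP 10 were higher and 2 lower, with a median of 0.09. Their sums overlapped, at 4070 to 5880 TPM in WT and 2240 to 4830 TPM in clnor at 34 DAP. At 42 DAP they were 3270 to 7390 and 4510 to 5740 TPM. Of 14 tested epidermis and cuticle markers 4 were higher and 3 lower at 34 DAP, and 4 and 2 at 42 DAP. The part of these cell types in the clock gene differences was not tested.

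The genotype difference itself changed with age for 5 of the 10 genes by limma's F test, where 23.1% of all genes were called. They were LHY (adjusted p = 0.024), REVEILLE (0.0191), ELF4-like (0.000534), GIGANTEA (0.00164) and FKF1-like (0.00238). ELF4-like, GIGANTEA and FKF1-like all had negative differences at 10 DAP (-2.14, -0.72 and -0.98, or -1.42, -0.62 and -0.55 without clnor 10 DAP library 3) and positive ones at 42 DAP (1.55, 1.0 and 1.57). LHY and REVEILLE ran from 0.66 and 0.54 at 10 DAP to -1.63 and -0.55 at 42 DAP. Of these only -1.63 was called, and LHY at 10 DAP was -0.19 without clnor 10 DAP library 3. The 10 DAP differences of GIGANTEA and FKF1-like were not called either. Without WT 10 DAP library 2 the adjusted p was 0.0514 for LHY and 0.052 for REVEILLE, and without clnor 10 DAP library 2 it was 0.0504 for REVEILLE. PRR7, at 0.0521, was called with a filter at 5 TPM (0.0491) and with upper-quartile scaling (0.036). It was also called without WT 18 DAP library 1 or 3, WT 26 DAP library 3, clnor 10 DAP library 2 or clnor 34 DAP library 1 or 2, with its lowest value, 0.00462, without WT 26 DAP library 3. LNK2, at 0.271, was not called. The fit without the 5 libraries nearest to another group is not used for this test, since it holds 1 clnor library at 10 DAP.

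Nearly all of the clock genes differed between ages, as did most genes of the table. The F test over ages called 9 of 10 in WT, all but ELF4-LIKE 4, and 9 of 10 in clnor, all but REVEILLE, where 76.1% and 56.7% of all genes were called. From 10 to 18 DAP 3 genes rose in WT (LHY, REVEILLE and LNK2) and 5 fell (PRR7, ELF3, ELF4-like, GIGANTEA and FKF1-like), 8 of 10 against 32.3% of all genes. In clnor 2 rose (LHY and LNK2) and 3 fell (ELF3, ELF4-like and FKF1-like), 5 of 10 against 7.08%. Without clnor 10 DAP library 1 or 2 only 1 of these 5, ELF4-like, was called, and without clnor 18 DAP library 3 there were 3. From 18 to 26 DAP 6 rose and 3 fell in each genotype, 9 of 10 against 36.9% of all genes in WT and 31.5% in clnor. LHY, REVEILLE 6 and LNK2 were the 3 that fell in both, and PRR7, ELF3, ELF4-like, GIGANTEA and FKF1-like rose in both, joined by REVEILLE in WT and ELF4-LIKE 4 in clnor. The median step of the 10 genes was 0.98 in WT and 1.07 in clnor, against medians of all genes of -0.034 and -0.016. Of 14 other clock genes tested, described below, 6 rose and 2 fell in this step in WT (median 0.34). In clnor 4 of them rose and 2 fell (median 0.07). From 10 to 18 DAP 5 of those 14 rose and 4 fell in WT, and 4 rose and 1 fell in clnor. The 10 genes were chosen with earlier results of these data known. The steps from 10 to 18 and from 18 to 26 DAP share their 18 DAP libraries, and so do not stand apart as separate evidence.

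From 26 to 34 DAP 3 rose in WT (LHY, REVEILLE 6 and LNK2) and 1 fell (PRR7), 4 of 10 against 33% of all genes. In clnor 3 rose (LHY, REVEILLE 6 and ELF4-like) and 2 fell (PRR7 and ELF4-LIKE 4), 5 of 10 against 15.8%. That clnor count was 2 without any 1 of the clnor 26 DAP libraries or clnor 34 DAP library 1, and 3 without clnor 34 DAP library 2 or 3. From 34 to 42 DAP limma called 0 of 10 in WT, with 0 at an unadjusted p below 0.05, against 3.75% of all genes. In clnor it also called 0 of 10, with 3 at an unadjusted p below 0.05 (PRR7, LNK2 and GIGANTEA), against 2.05% of all genes. Without the 5 libraries nearest to another group 4 were called in that clnor step, all higher at 42 DAP, namely LHY (1.25), PRR7 (0.91), LNK2 (1.5) and GIGANTEA (1.05). Summed over the 4 steps there were 21 called changes of 40 in WT and 19 of 40 in clnor. The shares of all genes called in the 4 steps were 32.3%, 36.9%, 33% and 3.75% in WT. In clnor they were 7.08%, 31.5%, 15.8% and 2.05%. Leaving out 1 library gave sums of 18 to 22 in WT and 14 to 20 in clnor.

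**Figure D4:**
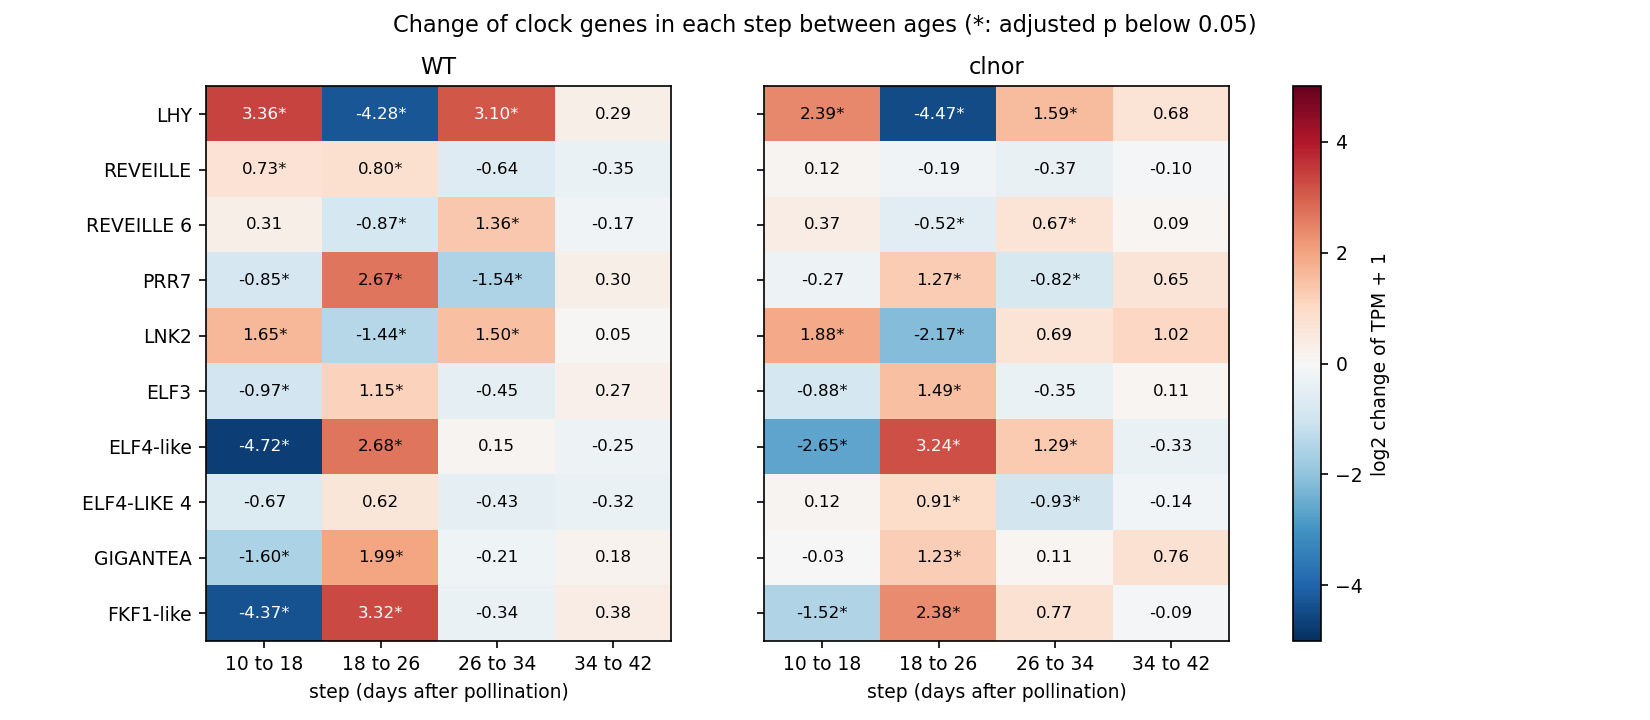
Change of each clock gene in each step between successive ages, in WT and in clnor, as log2 of TPM + 1, with red for a rise, blue for a fall and a star where the adjusted p was below 0.05. The first 2 steps hold most of the large changes, such as -4.72 and -4.37 for ELF4-like and FKF1-like in WT, and the last column has 0 stars in both genotypes.

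Variation among libraries of the same group was compared for the 45 pairs of clock genes, as Pearson's r and Spearman's rho of deviations from group means over 30 libraries, with 100000 permutations within groups. After adjustment over the 45 pairs 0 were called, and 5 had an unadjusted permutation p below 0.05 by Pearson's r. LHY and LNK2 deviated together (r = 0.85, permutation p = 0.0104, adjusted 0.118, rho = 0.6, permutation p = 0.0127, adjusted 0.143), and r was 0.66 without the 2 libraries farthest from the median on LHY. ELF4-like and FKF1-like gave r = 0.62 (permutation p = 0.00313, adjusted 0.103) and rho = 0.66 (permutation p = 0.00222, adjusted 0.0999), with r = 0.54 without 2 libraries. REVEILLE 6 and FKF1-like gave r = -0.69 (permutation p = 0.00564, adjusted 0.103) and rho = -0.61 (permutation p = 0.00839, adjusted 0.126), with r = -0.54 without 2 libraries. PRR7 and GIGANTEA gave r = 0.6 (permutation p = 0.0069, adjusted 0.103) and rho = 0.58 (permutation p = 0.00843, adjusted 0.126), with r = 0.63 without 2 libraries. LHY and ELF4-like gave r = -0.62 (permutation p = 0.0332, adjusted 0.298) and rho = -0.39 (permutation p = 0.0691, adjusted 0.439), with r = -0.43 without 2 libraries. None of these relations held up against the adjustment. Without clnor 10 DAP library 2, 2 pairs were called.

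**Figure D5:**
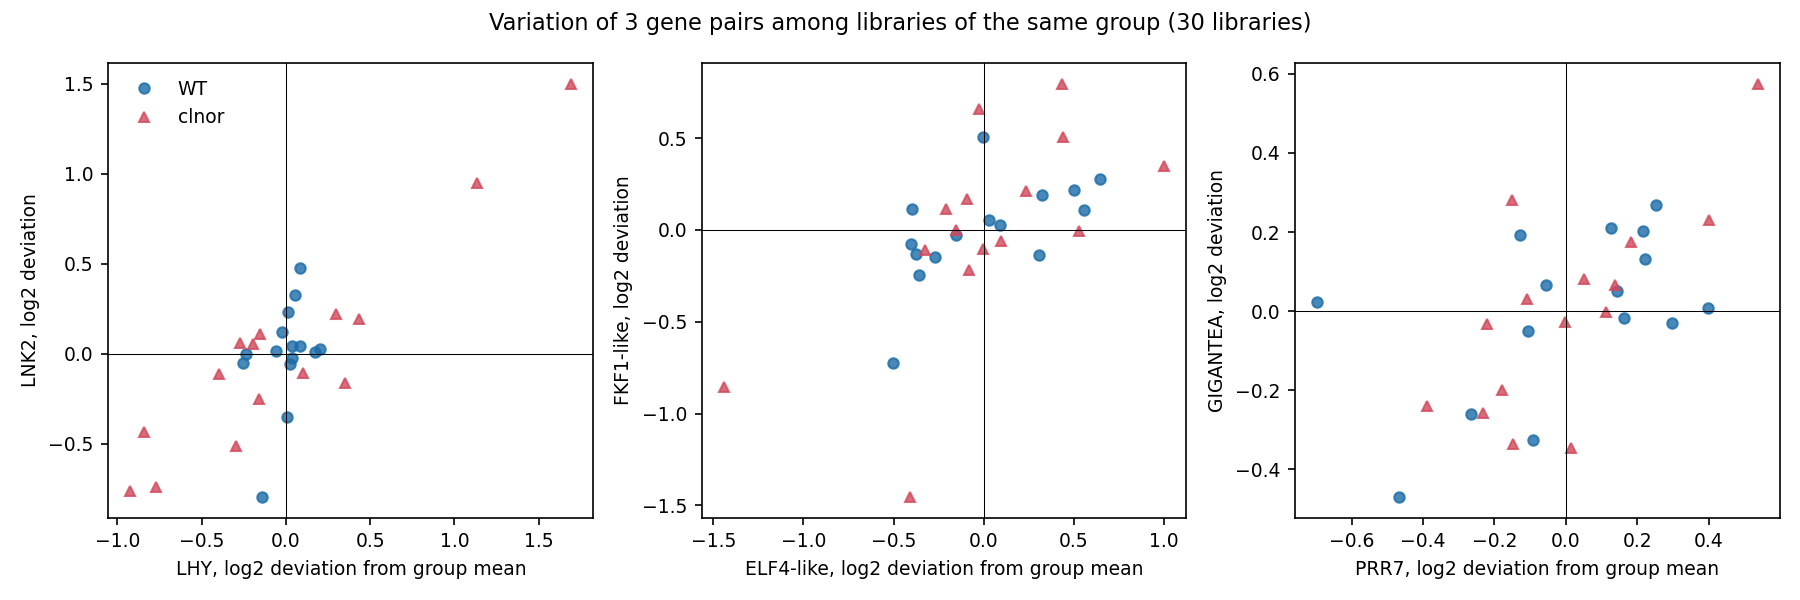
Deviation of each library from the mean of its group (log2 of TPM + 1) for 3 pairs of clock genes, with circles for WT and triangles for clnor. In the panel of LHY and LNK2 (r = 0.85) the 2 points at the upper right are clnor 10 DAP library 3 and clnor 34 DAP library 2.

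The genes most like LHY in those deviations were, with r over 30 libraries as a description, a REVEILLE 8-like gene (Cla97C10G203850, 0.945), LNK1 (Cla97C10G192390, 0.93), the clock gene LNK2 (0.854), a Dof zinc finger gene (Cla97C06G125730, 0.848) and SPA1-related 3 (Cla97C11G224130, 0.847). Like LHY, LNK1 held 4.20, 4.73 and 56.4 TPM in clnor at 10 DAP and 2.46, 30.5 and 5.95 TPM at 34 DAP, high in the same libraries. By level over all libraries the nearest to LHY were magnesium-chelatase subunit H (Cla97C04G068530, r = 0.935), a Myb gene (Cla97C04G079460, 0.931), 26S protease regulatory subunit 7 (Cla97C09G165640, 0.91), a mitochondrial carrier (Cla97C05G081450, 0.909) and a porin (Cla97C08G151760, 0.906). The nearest to GIGANTEA by level were a cytochrome P450 (Cla97C09G178420, r = 0.922), a putative propionyl-CoA carboxylase (Cla97C05G082090, 0.901), DnaJ genes (Cla97C01G006380, 0.897, and Cla97C09G180610, 0.896) and acetolactate synthase small subunit (Cla97C09G176910, 0.896). By deviations they were an asparaginase (Cla97C05G101950, 0.858), auxin transporter-like 4 (Cla97C04G073700, 0.842), a putative regulator of Vps4 (Cla97C06G118230, 0.82), a phytochrome (Cla97C08G151850, 0.818) and an alpha-galactosidase (Cla97C08G161330, 0.817). All libraries are shared by these correlations, and the ages alone can raise those by level.

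Several clock genes have a relative with a like description, and reads of near-identical copies may have been split between them. The other Gigantea gene (Cla97C09G172950) held 52.7 ± 2.83 TPM at 10 DAP, 13.6 ± 1.80 TPM at 18 DAP and 60.0 ± 2.27 TPM at 26 DAP in WT (mean ± SD, n = 3), low at 18 DAP like GIGANTEA. At 34 DAP its clnor libraries held 52.2, 50.9 and 52.8 TPM and its WT libraries 35.9, 33.7 and 33.8 TPM, but its genotype difference was called at 0 of the 5 ages and was 0.24 averaged over them (limma adjusted p = 0.0735). The other REVEILLE 6 gene (Cla97C05G081630) ran from 18.1 to 74.2 TPM, and the other ELF3 gene (Cla97C09G162370) from 10.2 to 24.7 TPM. The genotype difference of that REVEILLE 6 gene was called at 0 ages (0.12 averaged over ages, limma adjusted p = 0.312). That of the other ELF3 gene was called at 2 ages (average 0.26, adjusted p = 0.00946). An ELF4-LIKE 3-like gene (Cla97C11G207870) was also called at 2 ages (average 0.88, adjusted p = 0.000993). A gene described as LHY/CCA1-like 1 (Cla97C06G111610) was listed at 0 in 28 of 30 libraries and at 7.1 and 20.01 TPM in clnor 10 DAP library 2 and clnor 34 DAP library 3, so it was not tested.

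Other clock genes, found by search words in descriptions, numbered 16, of which 14 were tested. The calls were 0 at 10 DAP (1 at an unadjusted p below 0.05), 1 higher and 0 lower in clnor at 18 DAP, 2 higher with 2 lower at 26 DAP, 6 with 1 at 34 DAP, and 4 with 2 at 42 DAP. Of all genes tested 27.4% were higher and 12.1% lower at 34 DAP, and 18.8% and 13.8% at 42 DAP. The median difference of the 14 was 0.43 at 34 DAP and 0.39 at 42 DAP, where the medians of all genes were 0.199 and 0.056. The F test over ages called 12 of 14 in WT and 9 in clnor, beside 76.1% and 56.7% of all genes. A REVEILLE 6-like gene (Cla97C05G090510) held 0.26, 1.07 and 0.40 TPM in WT and 10.6, 6.75 and 7.06 TPM in clnor at 34 DAP, higher in clnor by 2.54 (SE 0.28, limma adjusted p = 3.85e-07). APRR2 (Cla97C09G175170), which despite its name is known in tomato and pepper for fruit pigmentation, held 66.4, 56.8 and 41.8 TPM in WT and 3.02, 0.58 and 2.24 TPM in clnor at 26 DAP. It was lower in clnor, with differences of -4.33 at 26 DAP, -3.06 at 34 DAP and -3.27 at 42 DAP (adjusted p = 3.91e-05, 0.000344 and 0.000225). A TIME FOR COFFEE gene (Cla97C09G169660), named for a nuclear clock regulator of Arabidopsis, was higher in clnor by 1.49 at 34 DAP and 1.06 at 42 DAP (adjusted p = 9.49e-05 and 0.00311). A second gene of that name (Cla97C06G115550) was called at 0 ages (0.2 averaged over ages, adjusted p = 0.102).

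Light and photoperiod genes numbered 62, of which 49 were tested. The calls were 0 at 10 DAP (9 at an unadjusted p below 0.05), 1 higher with 0 lower at 18 DAP, 7 with 5 at 26 DAP, 10 with 5 at 34 DAP, and 7 with 9 at 42 DAP. At these last 3 ages the background shares of higher genes were 9.66%, 27.4% and 18.8%, and those of lower genes 5.8%, 12.1% and 13.8%. At 10 and 18 DAP they were 0.248% and 1.38% for higher genes and 0.224% and 0.97% for lower genes. Cryptochrome-1 (Cla97C06G116630), a blue light receptor, held 55.1, 63.3 and 62.2 TPM in WT and 111, 115 and 116 TPM in clnor at 34 DAP, higher by 0.91 (SE 0.14, limma adjusted p = 2.99e-05), and was also higher at 26 and 42 DAP by 0.76 and 0.79 (adjusted p = 0.000793 and 0.000177). Another cryptochrome-1 gene (Cla97C06G116620) was called at 2 ages (0.76 averaged over ages). A Cryptochrome 1 gene (Cla97C11G220070) was called at 0 (average 0.15, adjusted p = 0.219). HY5 (Cla97C05G098160), a bZIP factor that promotes light responses, was higher by 2.04 at 26 DAP and 1.63 at 42 DAP (adjusted p = 0.00048 and 0.00136). A second HY5 gene (Cla97C08G156620) was called at 0 ages (average -0.02, adjusted p = 0.929). PHYTOCHROME KINASE SUBSTRATE 4 (Cla97C10G199730) held 0, 0.33 and 0.10 TPM in WT and 12.1, 16.5 and 17.5 TPM in clnor at 34 DAP, a difference of 3.83 (adjusted p = 4.39e-07), and a relative of PHYTOCHROME KINASE SUBSTRATE 1 (Cla97C04G079320) was higher by 1.99 (adjusted p = 9.51e-05). A COP1-interacting-like gene (Cla97C06G116780) was lower in clnor by 0.69 at 26 DAP and 0.87 at 42 DAP (adjusted p = 0.01 and 0.00055).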

How the data were processed

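RNA of watermelon flesh was measured in 30 libraries, 3 in each of 10 groups of genotype and age, grouped by their titles. The authors deposited 1 table of TPM values (the unit is taken from the values, whose sums per library run from 970727 to 985840), and 0 of its columns belonged to other samples. The submitters' processing notes name StringTie, Cufflinks, HISAT2 and TopHat2 with no roles. Not given in the sources used here are their versions, the genome build, the annotation and the strand setting, so reads of copies and of antisense genes may have been shared. TPM keeps no depth.

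Log2(TPM + 1) of the 16503 genes that reached 1 TPM in 3 or more libraries was fitted over 10 groups with limma 3.58.1 in R 4.3.3 (eBayes with trend and robust set, statmod 1.5.0, 20 residual degrees of freedom), leaving out 6093 genes. Tests were two-sided, adjusted by Benjamini and Hochberg over all genes of each contrast, and called below 0.05. The scripts were tested on simulated data. Deviations from group means were compared between members by permutation within groups.

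The 10 members and the lists were chosen with earlier results of these data known. Named besides the members are the 8 genes of the clock and light lists called at 2 or more ages with the smallest adjusted p at any age, and the 5 genes most like LHY and GIGANTEA by each measure. The copies and relatives of members were chosen by description, after their values could be seen. Alternatives were pseudocounts of 0.1 and 0.5, no filter, a filter at 5 TPM, upper-quartile and quantile scaling, eBayes without trend, fits of 2 groups alone, a replicate block and leaving out each library. Leaving out the 5 libraries nearest to another group was chosen after seeing the data, and it leaves 1 clnor library at 10 DAP. As the 5 were picked by their distance from their own group, calls gained without them are no added support.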

Additional observations from a re-analysis of the deposited data

Results flagged for a closer look

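The difference between clnor and WT was not the same at all ages for 5 of the 10 clock genes, by limma's F test of the change of that difference with age. Of all genes tested 23.1% were called by this test. The adjusted p was 0.024 for LHY (Cla97C06G111640), whose difference ran from 0.66 at 10 DAP to -2.01 at 34 DAP. It was 0.0191 for REVEILLE (Cla97C01G008850), from 0.54 at 10 DAP to -1.07 at 26 DAP. It was 0.000534 for ELF4-like (Cla97C07G132630), from -2.14 at 10 DAP to 1.63 at 34 DAP. It was 0.00164 for GIGANTEA (Cla97C08G150060), from -0.72 at 10 DAP to 1.0 at 42 DAP. It was 0.00238 for FKF1-like (Cla97C07G133850), from -0.98 at 10 DAP to 2.04 at 34 DAP.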

How the results depend on the processing

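Depth is unknown, and with it how precise the low values are. The calls for clnor against WT at the early ages depended most on the settings. At 10 DAP the count of 1 became 0 with a pseudocount of 0.1 and with a fit of the 2 groups alone. At 18 DAP the count of 2 became 1 with quantile normalization and 0 with the 2 groups alone. Leaving out 1 library at a time gave 0 to 1 calls at 10 DAP, 0 to 2 at 18 DAP, 1 to 3 at 26 DAP, 3 to 7 at 34 DAP, 3 to 6 genes whose genotype difference changed with age, and 0 to 2 pairs of genes. The counts at 42 DAP, averaged over ages, over the ages of a genotype and summed over steps stayed within 1.5 times the reported count under the alternatives run. No called member value reversed its sign, and 12 values that were not called changed sign when a setting other than leaving out 1 library was used. Quantile normalization moved the median of all genes at 34 DAP from 0.199 to -0.013, that of WT 34 against 26 DAP from -0.13 to 0.022 and that of WT 42 against 34 DAP from 0.147 to 0.003, and upper-quartile scaling moved the last to 0.027. Deviations of WT and clnor libraries of the same age and replicate number gave r of -0.407 to 0.247, over 0.1 in 4 of 15 pairs of libraries. Those 4 were at 26 DAP (0.187 and 0.156) and 34 DAP (0.247 and 0.109). With 3 libraries in each group these values cannot settle whether the numbers pair samples. With the replicate block the count at 18 DAP was 1, since GIGANTEA was not called (adjusted p = 0.0547), REVEILLE 6 was called averaged over ages (0.0479), and 2 pairs of genes were called. The causes were not tested.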
